A study of Arabidopsis thaliana with 6 samples.

Results

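The chaperones of the endoplasmic reticulum (ER) lumen were represented by 8 of 22746 probe sets on the array. The set comprised SHD and every probe set whose title in the authors' deposited table contains calreticulin, calnexin or luminal binding protein. Total RNA came from seeds of Arabidopsis thaliana that carried the anac089-2 mutation in the Columbia-0 (Col-0) background, and from wild-type Col-0 seeds. All seeds of both groups were kept in water at 4 °C in the dark for 3 days, then at 22 °C in light for 3 h with 5 µM abscisic acid (ABA), a hormone that holds back germination. An Affymetrix ATH1 array was hybridised for each of 3 biological replicates per genotype, and no seeds without ABA were analysed here, so a response to ABA cannot be told apart from a difference present without it. Whole seeds were extracted, so that a change in the amount of a cell type cannot be told apart from a change in RNA per cell. anac089-2 is 1 mutant allele, and the transcript of the mutated gene itself was not analysed here.

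Proteins that enter the secretory pathway fold in the ER lumen. BiP, the ER member of the HSP70 family, binds newly imported chains, while the calnexin and calreticulin lectins hold chains that carry a trimmed glycan. SHD (SHEPHERD, also HSP90.7) is the ER member of the HSP90 family and in Arabidopsis is needed for the CLAVATA pathway of the shoot meristem. In plants, genes for these chaperones are known targets of the unfolded protein response, which raises folding capacity when unfolded chains accumulate. ANAC089 is a NAC transcription factor with a membrane anchor.

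The 8 probe sets hold 1 HSP90 (SHD, AT4G24190), 2 BiP titles (BiP-1 and BiP-3), 2 calnexins (CNX1, AT5G61790, and AT5G07340, titled a putative calnexin) and 3 calreticulins. The authors' title CRT1 is CRT1a (AT1G56340) in RefSeq, and the title CRT2 is CRT1b (AT1G09210). CRT3 is AT1G08450 and BiP-3 is AT1G09080. The BiP-1 probe set carries probes that match several similar transcripts, and its title gives the same name for both of its targets, so transcripts of near-identical BiP genes cannot be separated by it.

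Transcripts for 7 of the 8 chaperone probe sets had higher mean levels in anac089-2 than in wild-type seeds, as did 57% of all probe sets, and 2 of the 8 passed the test, beside 4.92% of all probe sets. SHD rose 3.01-fold and the calnexin gene AT5G07340 rose 1.89-fold (limma adjusted p = 0.0261 and 0.0322). A gene is called here at a limma adjusted p under 0.05, adjusted over all 22746 probe sets. Over all probe sets, 2.94% passed in the higher direction and 1.98% in the lower. The other 6 chaperone probe sets did not pass, and 0 passed in the lower direction by limma, with 1 (BiP-3) lower at an unadjusted p under 0.05. The median log2 fold change of the 8 was 0.62, beside 0.04 over all probe sets. It was 0.50 to 0.54 under median centring, a second quantile normalization and cyclic loess. SHD was known as one of the strongest increases when the set was chosen, so its place in the set is no independent evidence.

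The SHD level was 7.55, 6.89 and 6.95 on the 3 anac089-2 arrays, against 5.54, 6.05 and 5.03 on the 3 wild-type arrays (log2 RMA values). The lowest anac089-2 array lay 0.84 above the highest wild-type array, and the 3 wild-type arrays were themselves spread over 1.02. The mean was 7.13 ± 0.365 in anac089-2 and 5.54 ± 0.51 in wild type (SD, n = 3 each), a log2 fold change of 1.59 ± 0.282 (SE, 95% interval 0.93 to 2.25). Among all probe sets SHD had the 17th largest increase, so it stood at percentile 99.9 of the changes.

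Among the calnexins, membrane-anchored lectins that retain unfinished glycoproteins, AT5G07340 measured 7.76, 7.41 and 7.48 in anac089-2 and 6.63, 6.94 and 6.33 in wild type. These groups did not overlap, with a gap of 0.47, and the log2 fold change was 0.92 ± 0.175 (SE, 95% interval 0.51 to 1.33). CNX1 measured 9.01, 8.62 and 8.66 in anac089-2 and 7.76, 8.32 and 8.12 in wild type. CNX1 arrays did not overlap either, but its log2 fold change of 0.70 ± 0.175 (SE) missed the threshold with a limma adjusted p of 0.0704. Its 95% interval ran from 0.29 to 1.11 and held the estimate for AT5G07340.

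**Figure D1:**
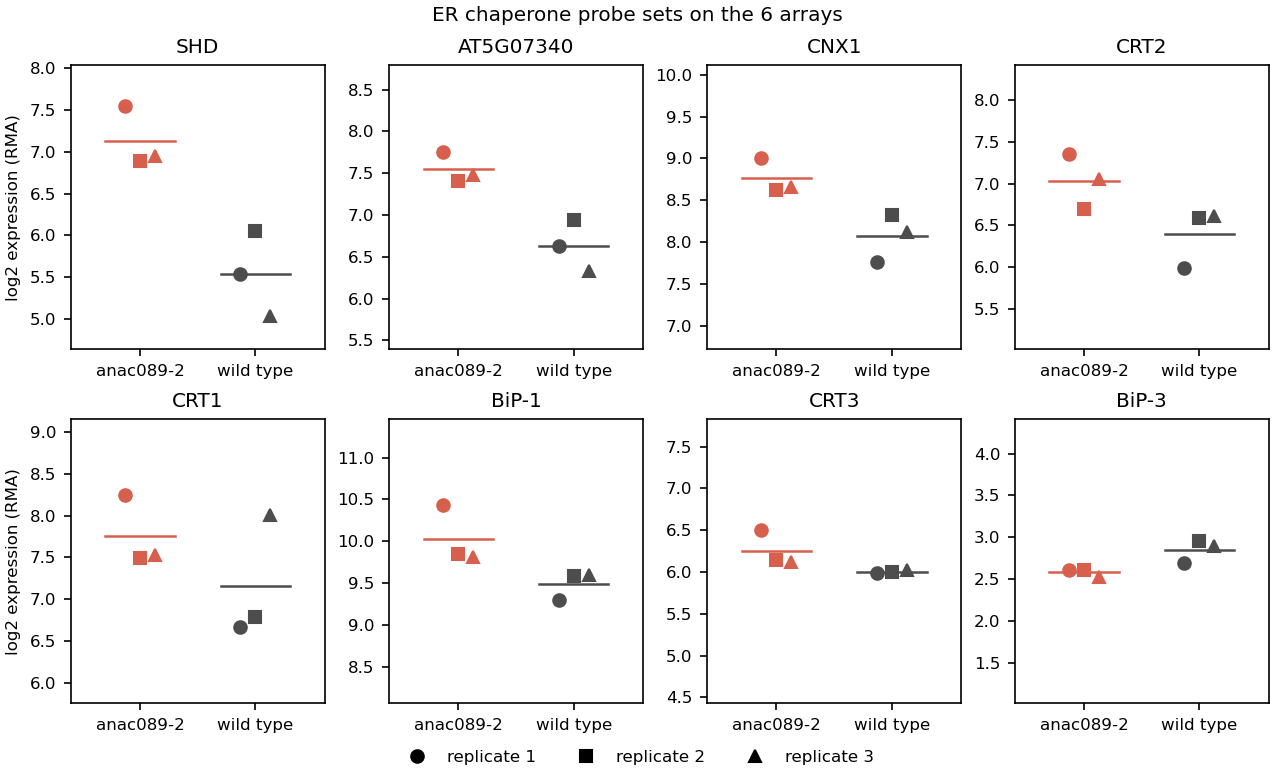
Log2 expression (RMA, vertical axis) of the 8 ER chaperone probe sets in anac089-2 and wild-type seeds, with 1 symbol per array, symbol shape for the replicate number and a line at each group mean. Each panel spans the same number of log2 units; anac089-2 replicate 1 is the highest anac089-2 array in the 7 panels other than BiP-3, and the CRT1 level of wild-type replicate 3 (8.01) lies among the anac089-2 arrays.

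Calreticulins are the soluble counterparts of the calnexins and also store calcium in the lumen. CRT2 measured 7.35, 6.70 and 7.05 in anac089-2 and 5.99, 6.59 and 6.61 in wild type, a log2 fold change of 0.64 ± 0.223 (SE, limma adjusted p = 0.17). The CRT2 arrays of the groups were separated by only 0.09. CRT1 measured 8.24, 7.49 and 7.53 in anac089-2 and 6.67, 6.78 and 8.01 in wild type, and it was the 1 probe set of the 8 whose groups overlapped. Its log2 fold change was 0.60 ± 0.376 (SE, limma adjusted p = 0.451), with a 95% interval from -0.28 to 1.48. Without wild-type replicate 3 the CRT1 change was 1.03 ± 0.226 (SE) and passed, with a limma adjusted p of 0.0439. Without wild-type replicate 1, and likewise without anac089-2 replicate 1, it was 0.36 (limma adjusted p = 0.645 and 0.769). Wild-type replicate 3, where CRT1 was highest in wild type, had the lowest array median of the 6, 3.80 against 3.97 to 4.01. SHD and AT5G07340 had their lowest wild-type values on that same array. With arrays centred on their medians the CRT1 change was 0.51 (limma adjusted p = 0.49). The part of the array median in the CRT1 value was not tested further.

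CRT3, the calreticulin that in Arabidopsis retains defective brassinosteroid receptors, had the smallest positive change of the 8. It measured 6.50, 6.14 and 6.12 in anac089-2 and 5.99, 6.00 and 6.02 in wild type. All 3 anac089-2 arrays were above the wild-type ones, by 0.10 at the closest, and the wild-type arrays lay within 0.03 of each other. The log2 fold change was 0.25 ± 0.125 (SE, limma adjusted p = 0.34), with a 95% interval from -0.04 to 0.54. It was 0.13 without anac089-2 replicate 1, 0.16 under median centring, 0.07 after a second quantile normalization and 0.06 after cyclic loess.

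Neither BiP title passed the test. BiP-1 measured 10.43, 9.85 and 9.81 in anac089-2 and 9.30, 9.58 and 9.59 in wild type. The groups were 0.22 apart, and the log2 fold change was 0.54 ± 0.185 (SE, 95% interval 0.10 to 0.98, limma adjusted p = 0.163). Without anac089-2 replicate 1 it was 0.34 (limma adjusted p = 0.382). BiP-3, a form that in Arabidopsis is strongly induced by ER stress, measured 2.61, 2.61 and 2.52 in anac089-2 and 2.69, 2.96 and 2.89 in wild type. Its mean level over the 6 arrays was at percentile 8.16 of all probe sets, so the value is one of a very dim probe set. The groups did not overlap, with anac089-2 lower by 0.08 at the closest, and the log2 fold change was -0.27 ± 0.107 (SE, limma adjusted p = 0.23).

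Of the 8 chaperone probe sets, 6 had every anac089-2 array above every wild-type array, which held for 15.8% of all probe sets. Among the 4100 probe sets with mean log2 levels of 6 to 8, where SHD, AT5G07340 and the calreticulins lie, it held for 26.9%, the median log2 fold change was 0.14 and 5.27% rose. In the opposite direction, BiP-3 was the 1 with all anac089-2 arrays below, as were 8.23% of all probe sets. An unadjusted limma p under 0.05 in the higher direction was reached by 5 of the 8, beside 13.2% of all probe sets.

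**Figure D2:**
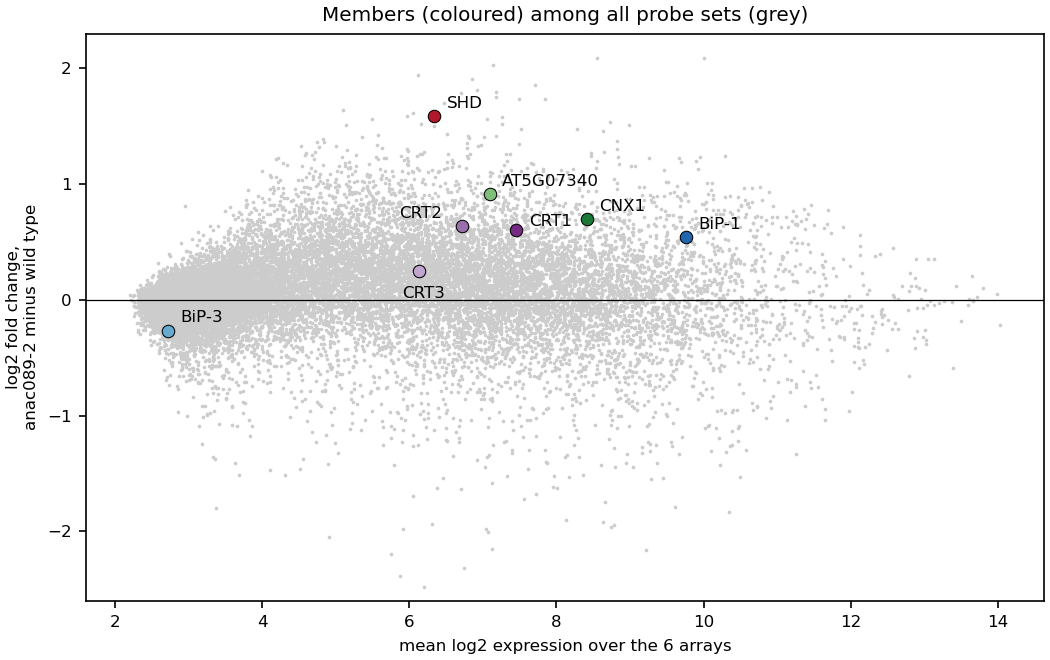
Log2 fold change (anac089-2 minus wild type, vertical axis) against mean log2 expression over the 6 arrays (horizontal axis) for all probe sets in grey and the 8 chaperone probe sets in colour; 5 grey points lie outside the plotted range. SHD at 1.59 lies at the upper edge of the cloud, 6 others lie between 0.25 and 0.92, and BiP-3 lies among the dimmest probe sets at -0.27.

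The chaperone levels shared a pattern among replicates of 1 group. For all 7 probe sets with a mean level of at least 4, anac089-2 replicate 1 was the highest of the 3 anac089-2 arrays, which held for 44.3% of all probe sets with mean levels of 6 and over. Its excess over the anac089-2 mean was 0.49 for CRT1, 0.42 for SHD, 0.40 for BiP-1, 0.32 for CRT2 and 0.21 to 0.25 for AT5G07340, CNX1 and CRT3. In wild type the 7 did not share 1 order. Replicate 1 was lowest for 5 of them, as for 19.9% of all probe sets with mean levels of 6 and over. Replicate 3 was lowest for SHD and AT5G07340, as for 63.0% of those probe sets.

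The calls of SHD and AT5G07340 depended on single arrays. Without anac089-2 replicate 1 the SHD change was 1.38 (limma adjusted p = 0.125) and that of AT5G07340 was 0.81 (0.153). Leaving out anac089-2 replicate 2 gave adjusted p-values of 0.0697 for SHD and 0.0826 for AT5G07340. Without anac089-2 replicate 3 they were 0.108 and 0.128, and without wild-type replicate 1 they were 0.0687 and 0.0776. Both calls held without wild-type replicate 2 (0.0475 and 0.0497) and without wild-type replicate 3 (0.0245 and 0.0294). Over all probe sets the number of calls also changed, from 1120 with all arrays to 6, 470 and 4 without anac089-2 replicates 1, 2 and 3, and to 521 and 301 without wild-type replicates 1 and 2. The direction of all 8 changes was the same in each of these fits, and the SHD change lay between 1.33 and 1.84. With all arrays kept, the size of both changes also depended on the scaling. SHD had 1.43 after a second quantile normalization, 1.41 after cyclic loess and 1.29 with array weights, against 1.59. AT5G07340 had 0.80, 0.78 and 0.74 in the same order, against 0.92. Median centring lowered both by less. Both stayed at a limma adjusted p under 0.05 in all of these.

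**Figure D3:**
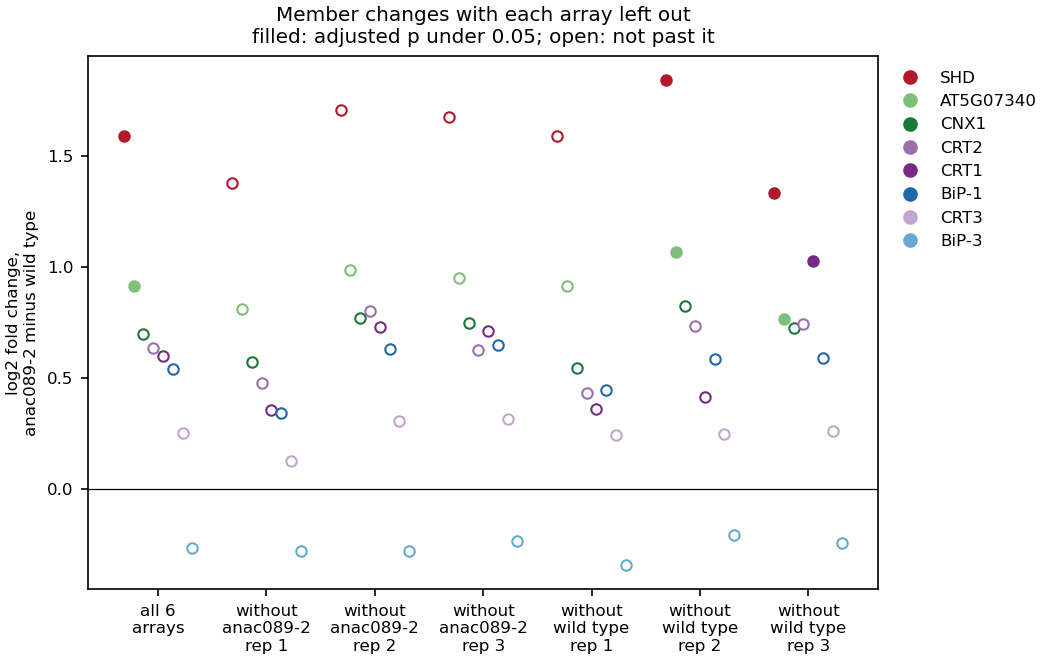
Log2 fold change (anac089-2 minus wild type, vertical axis) of the 8 chaperone probe sets with all 6 arrays and with each array left out in turn; filled points have a limma adjusted p under 0.05. SHD and AT5G07340 are filled with all arrays and without wild-type replicates 2 and 3, and CRT1 is filled only without wild-type replicate 3.

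SHD had the largest change of the set, and it was among the largest increases of the array when the set was chosen, so the differences between its change and the others are given as a description with no test. The SHD log2 fold change exceeded that of AT5G07340 by 0.67, of CNX1 by 0.89, of CRT2 by 0.95, of CRT1 by 0.99, of BiP-1 by 1.05 and of CRT3 by 1.34.

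The cytosolic HSP90 genes offer a comparison within the family of SHD. HSP81-2 measured 10.68, 10.70 and 10.60 in anac089-2 and 10.20, 10.33 and 10.11 in wild type, a log2 fold change of 0.45 ± 0.100 (SE, limma adjusted p = 0.0521). Its groups did not overlap. HSP81-4, on a probe set that also matches similar transcripts, had a log2 fold change of 0.29 (limma adjusted p = 0.224), and the stress-inducible HSP81-1 had -0.05 (0.833), or 0.01 under cyclic loess. The SHD change was larger than these by 1.14, 1.30 and 1.64, again as a description with no test. Of the 3 probe sets titled HSP90 outside the set, 0 passed by limma and 2 had an unadjusted p under 0.05.

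Among 13 probe sets titled HSP70 or heat shock cognate 70, the family of BiP outside the set, 1 rose, 1 fell and 11 did not pass, with a median log2 fold change of -0.01. HSC70-1 measured 11.59, 11.54 and 11.64 in anac089-2 and 10.98, 11.20 and 11.11 in wild type and rose by 0.49 ± 0.0998 (SE, limma adjusted p = 0.0379). HSC70-3 (AT3G09440) measured 10.74, 11.05 and 10.89 in anac089-2 and 11.58, 11.65 and 11.64 in wild type, and fell by 0.73 on the log2 scale (SE 0.109, limma adjusted p = 0.017). Both titles name constitutive cytosolic forms, and they moved in opposite directions.

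**Figure D4:**
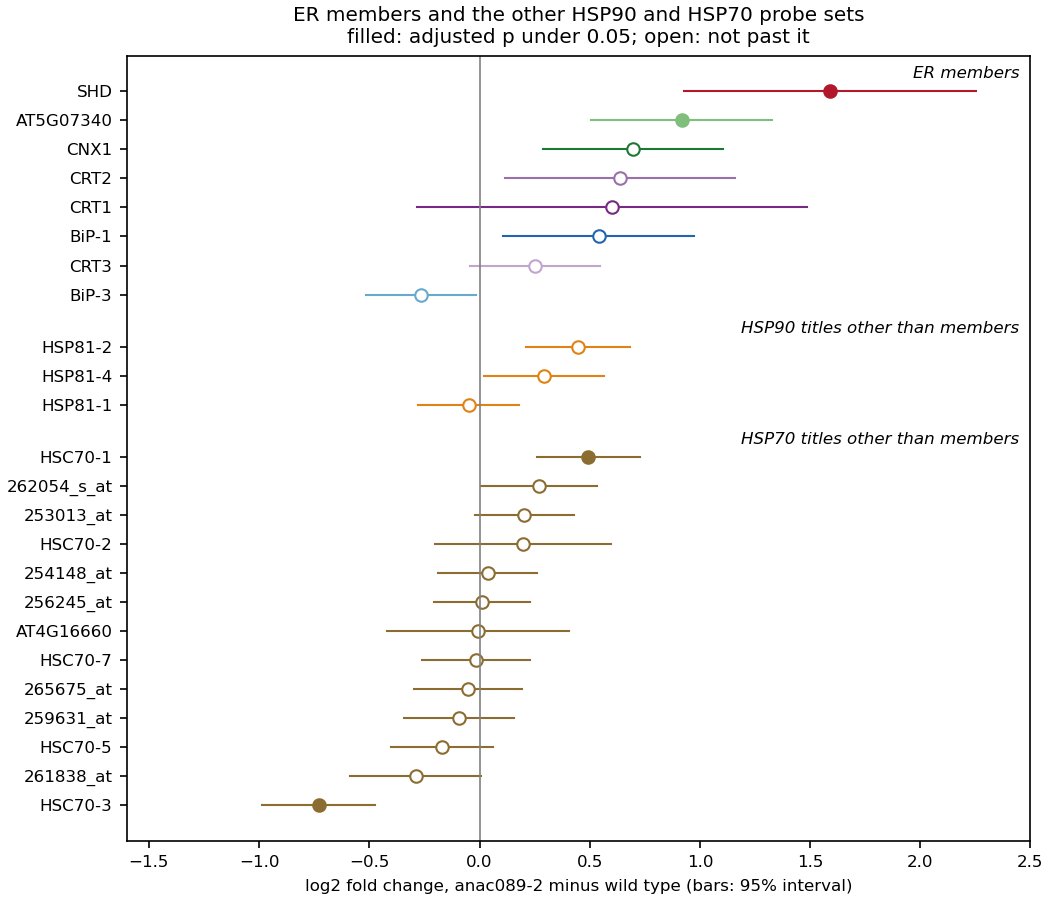
Log2 fold change (anac089-2 minus wild type, horizontal axis) with its 95% interval from limma for the 8 ER chaperone probe sets and for the other probe sets titled HSP90 or HSP70; filled points have a limma adjusted p under 0.05. The SHD interval is 0.93 to 2.25. SHD was chosen with its change known, so its place above the other HSP90 and HSP70 titles is a description with no test.

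Other parts of the ER folding route were looked at through lists of titles and loci. Oligosaccharyl transferase adds the glycan that calnexin and calreticulin later read. All 7 probe sets titled for its subunits (oligosaccharyl transferase, ribophorin or defender against cell death) had changes above 0, from 0.52 to 0.78 with a median of 0.62, and in 6 of them the anac089-2 arrays were all above the wild-type arrays. Over all probe sets 57% had changes above 0 and 15.8% had all anac089-2 arrays above, a share that was 27.7% at mean levels of 6 and over. The 7 stayed above 0 under median centring, a second quantile normalization and cyclic loess, with lower medians of 0.53, 0.46 and 0.44. Wild-type replicate 3 was the lowest wild-type array for each of them, as for 63.0% of all probe sets at mean levels of 6 and over. Of the 7, 1 rose and 6 did not pass. The one that passed was AT1G76400, titled ribophorin I, with 6.76, 6.41 and 6.48 in anac089-2 and 5.87, 6.10 and 5.81 in wild type (log2 fold change 0.62 ± 0.134, SE, limma adjusted p = 0.0456).

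The translocon, through which chains enter the lumen, had 10 probe sets titled sec61. All 10 had changes above 0 (median 0.42), though 9 of 10 did under median centring. The median was 0.33 under median centring, 0.35 after a second quantile normalization and 0.31 after cyclic loess. In 7 of the 10 all anac089-2 arrays were above all wild-type arrays. This held for 15.8% of all probe sets and 27.7% of those at mean levels of 6 and over, and 2 of the 10 had levels under 4. Of the 10, 1 rose and 9 did not pass. AT5G60460, titled sec61beta, measured 9.92, 9.94 and 9.83 in anac089-2 and 9.42, 9.48 and 9.32 in wild type and rose by 0.49 ± 0.0953 (SE, limma adjusted p = 0.0339). AT1G29310, a sec61 gene of the locus list, had 0.88 and a limma adjusted p of 0.0512. The signal peptidase of the ER cuts off the entry signal. Of 10 probe sets with signal peptidase in the title, 9 had changes above 0 (median 0.47). By limma 0 of the 10 passed, while 7 had an unadjusted p under 0.05, beside 19.3% of all probe sets. Several of the 10 are titled signal peptidase I family, a title that gives no compartment, so the list may not be limited to the ER. After a second quantile normalization and cyclic loess all 10 were above 0, with lower medians of 0.29 and 0.28. The largest was AT3G05230 with 0.64 (limma adjusted p = 0.177).

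Protein disulfide isomerases form the disulfide bonds of folding chains. Of 4 probe sets with this title 1 rose, 0 fell and 3 did not pass (median 0.48, and 0.36 to 0.39 under the scaling alternatives). The one that rose, a putative isomerase for which no source used here gives a gene, measured 7.87, 7.45 and 7.53 in anac089-2 and 6.87, 6.85 and 7.08 in wild type (log2 fold change 0.68 ± 0.139, SE, limma adjusted p = 0.0391). The isomerase gene PDIL5-1 had 0.38 (limma adjusted p = 0.325), and 0.23 to 0.29 under the scaling alternatives. ERDJ3B, a DnaJ cochaperone of BiP, had 0.67 (limma adjusted p = 0.231), and 0 of the 3 cochaperone genes measured passed by limma, with 1 at an unadjusted p under 0.05.

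DnaJ proteins as a whole, most of them of other compartments or unknown place, showed no common direction. Of 103 probe sets titled DnaJ 3 rose, 2 fell and 98 did not pass, with a median of 0.06, which was -0.04 to -0.03 under the scaling alternatives. The 3 largest changes past the threshold were a fall of a probe set without a gene name here (-1.40 ± 0.166, SE) and the rise of AT3G14200 (0.90 ± 0.140, SE) and AT2G33735 (0.85 ± 0.132, SE), with limma adjusted p-values of 0.0117, 0.0191 and 0.0188.

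ER-associated degradation removes chains that fail to fold. None of the 6 probe sets for 5 measured genes of this list passed by limma, 1 had an unadjusted p under 0.05, 5 had changes above 0 (4 under the quantile and median alternatives) and the median was 0.42. OS9, a lectin that picks glycoproteins for degradation, had the largest value, 0.82 (limma adjusted p = 0.0622), and among the 3 Der1 titles DER2.1 had the largest, 0.52 (0.465). Of 12 listed ER stress regulators, 5 could be matched to a probe set, of which 0 passed by limma and 2 had an unadjusted p under 0.05. BZIP17, a membrane-bound factor that is cut free under stress, had the largest value, 0.49 (limma adjusted p = 0.0656), with 7.90, 7.90 and 7.73 in anac089-2 and 7.31, 7.54 and 7.20 in wild type. BZIP28 and BZIP60, the main activators of BiP genes in Arabidopsis and named here after their values were seen, had -0.38 (limma adjusted p = 0.18) and -0.21 (0.44), and their groups overlapped. BZIP17 and BZIP28 were the 2 at an unadjusted limma p under 0.05, in opposite directions. The array values are RNA levels, so the activity of these factors was not measured.

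**Figure D5:**
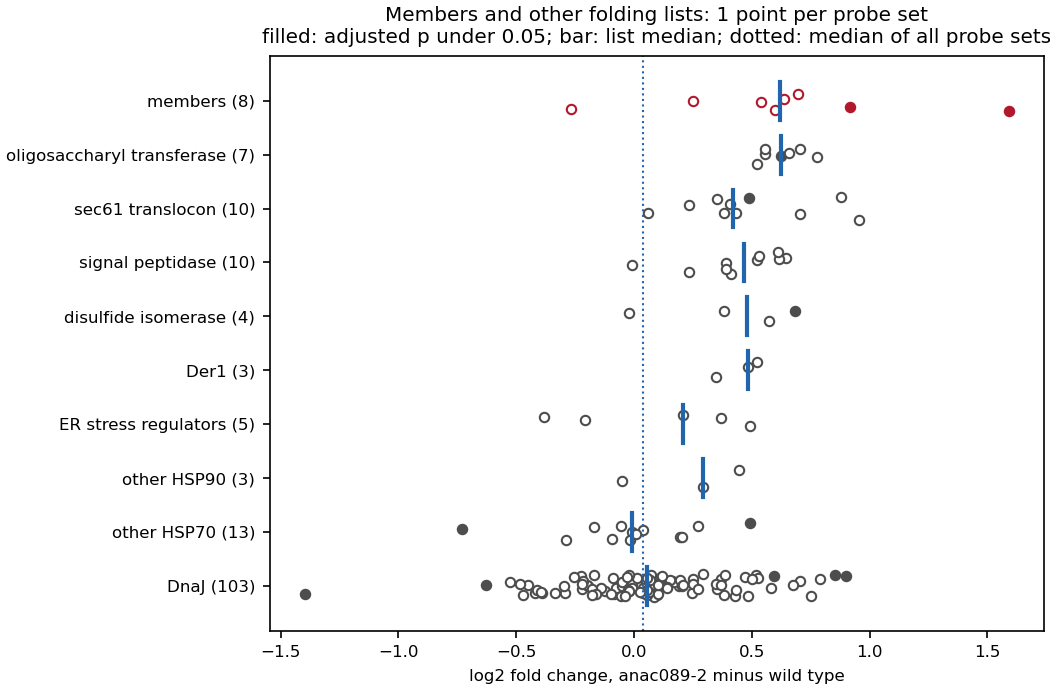
Log2 fold change (anac089-2 minus wild type, horizontal axis) of each probe set in the ER chaperone set and in other folding lists, with the number of probe sets in parentheses, filled points at a limma adjusted p under 0.05, blue bars at list medians and a dotted line at the median of all probe sets (0.04). With the deposited values the medians are 0.62 for the chaperones and for oligosaccharyl transferase, against 0.50 and 0.44 after cyclic loess. With the deposited values they are 0.42 to 0.48 for sec61, signal peptidase, disulfide isomerase and Der1 titles, and -0.01 and 0.06 for other HSP70 and DnaJ titles. After cyclic loess they are 0.28 to 0.36 for the former 4 lists, and -0.05 and -0.04 for the latter 2.

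Over all of these lists outside the 8 chaperones, 162 probe sets were counted once each, of which 7 rose (4.32%) and 3 fell (1.85%), beside the 2.94% and 1.98% of all probe sets. In 46 of them (28.4%) the anac089-2 arrays were all above the wild-type arrays, beside 15.8% of all probe sets. Among all probe sets the share was 27.7% at mean levels of 6 and over, 25.3% at 4 to 6 and 5.09% under 4. The lists hold probe sets at all of these levels, so none of these shares is matched to them. Without anac089-2 replicate 1, and without replicate 3, 0 of them passed by limma (30 and 38 at an unadjusted p under 0.05). Without wild-type replicate 2 there was 1 call, in the lower direction. Medians of the sec61, signal peptidase and glycan lists are to be read beside those of all probe sets at like levels. These were 0.20 at log2 levels of 4 to 6, 0.14 at 6 to 8, 0.05 at 8 to 10 and lower still under 4. The sec61 and signal peptidase lists spread over all of these levels.

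The profile of SHD over the 6 arrays was compared with 3551 other named probe sets of mean level 6 or more, each centred on its own mean. The measure was the root-mean-square difference over the 6 arrays, and a small value needs a rise as large as that of SHD. The 6 nearest were AT2G39420 (an esterase or lipase title, 0.155), AT2G37600 (60S ribosomal protein L36, 0.191), AT5G11420 (0.197), AT1G28395 (0.203), AT3G15530 (0.221) and the GDSL-motif lipase AT3G14220 (0.234). Nearest among the chaperones was AT5G07340 at place 51 (0.372), and CNX1 followed at 272 (0.535).

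The labelled tissue was checked against seed reserves. Oleosins (8 probe sets) had a mean log2 level of 11.7 on each anac089-2 array and of 11.7 to 11.9 on the wild-type arrays. A cruciferin title was at 13.79 to 13.90 in anac089-2 and 13.71 to 13.76 in wild type, and 0 of these 9 probe sets passed by limma, also 0 at an unadjusted p under 0.05. Calls among 2S albumin and late embryogenesis abundant titles were mostly falls, where 1.98% of all probe sets fell and 2.94% rose. All anac089-2 arrays were below all wild-type arrays for 3 of 4 albumin titles, beside 8.23% of all probe sets. This held for 15 of 37 late embryogenesis abundant titles, and 2 of the 37 lay above. Mean levels under 4 were found for 15 of the 37. Summed signals were 7350 to 8315 in anac089-2 against 9659 to 12399 in wild type for 4 titles of 2S albumins (3 fell), and 68674 to 72035 against 84371 to 100015 for 37 late embryogenesis abundant titles (9 fell, 1 rose and 27 did not pass, median log2 fold change -0.08). Chlorophyll a-b binding titles (19) summed to 460 to 503 in anac089-2 and 438 to 496 in wild type (1 fell and 18 did not pass), and a small subunit title of ribulose bisphosphate carboxylase rose by 0.85 (limma adjusted p = 0.0483). The endosperm genes FWA and MEA, the seed coat gene BAN and the embryo epidermis gene PDF1 did not pass by limma, with PDF1 alone at an unadjusted p under 0.05, and FWA and BAN had levels under 4 in both groups. The part of these differences in the chaperone values was not tested.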

How the data were processed

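Values deposited by the authors are log2 levels, 1 per probe set and array. The submitters' processing notes name RMA (robust multi-array averaging) and limma, and neither settings nor array definition is stated there. The authors' deposited table adds titles, log2 fold changes and limma p-values with FDR values, per the file headers; 6 further per-array columns in it were not used, and 4 FDR cells could not be read as numbers. The largest gap between its log2 fold changes and those of the fit below was 0.0133.

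After 64 control probe sets were set aside, limma 3.58.1 (R 4.3.3) was fitted to the 6 arrays with 2 groups and no block, with Benjamini-Hochberg adjustment over 22746 probe sets. The procedure was tested on simulated data with independent normal noise. It recovered 2 of 67 probe sets changed by 0.5 on the log2 scale, 55 of 67 changed by 1 and 65 of 66 changed by 2. Among the unchanged probe sets 5 were called. A probe set that did not pass may therefore still have a change of about 0.5. SEs and 95% intervals are those of the moderated test, and differences are anac089-2 minus wild type. The number of arrays limits the precision. An exact permutation test of SHD against other genes was run but is not read, since 3 arrays against 3 cannot go below a two-sided p of 0.1 and SHD was chosen with its change known.

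Members and lists were chosen with earlier results of these data known. All 8 members were named. From each folding list up to 3 probe sets past the threshold with the largest change were named, or the 1 with the largest change. Seed marker lists are given by counts and sums. The 6 profiles nearest to SHD were named too. Loci came from the platform table, which gives 1 symbol for 13513 probe sets, several for 503 and does not list 8730, and from the authors' titles matched to RefSeq (TAIR10.1). Of 86 genes listed by locus 35 could be matched to a probe set. Protein and promoter sequences were not analysed here. Alternatives were second quantile normalization, median centring, cyclic loess, leaving out the dimmest 40%, an intensity trend, a block for the replicate number, array weights, the authors' statistics, a minimum change and leaving out each array.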

Additional observations from a re-analysis of the deposited data

How the results depend on the processing

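All 8 member changes kept their sign under every alternative in which the probe set was tested, BiP-3 being absent when the dimmest 40% were left out. Of the single member values under alternatives, 100 kept their side of the threshold, 9 lost it (SHD without 4 of the single arrays, AT5G07340 without the same 4 and with the replicate block) and 2 gained it (CNX1, adjusted p = 0.0473, without the dimmest 40%, and CRT1 without wild-type replicate 3). The 2 members past the threshold became 1 with the replicate block and 1 with a change of at least 1 required, and 0 to 3 with 1 array left out (4 or 5 at an unadjusted p under 0.05 in the fits with 0). The 1120 calls over all probe sets became 494 with the replicate block, 320 with a change of at least 1 required, 2070 with array weights, 1701 after a second quantile normalization, 1784 after cyclic loess and 4 to 1667 with 1 array left out. The 10 calls among the folding lists (7 higher, 3 lower) became 2 with the replicate block (0 higher, 2 lower), 20 with array weights and 0 to 13 with 1 array left out. The cause was not tested. Deviations from the group means correlated at -0.089, -0.063 and -0.135 between arrays of the same number. None of the anac089-2 arrays correlated best with its own number. No pairing by number was seen, though 3 arrays per group cannot exclude it. With the block SHD had a limma adjusted p of 0.0447 and AT5G07340 of 0.0589. No background signal was analysed here, so how far the dim BiP-3 probe set stood above it is unknown.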
